A study of Homo sapiens with 12 samples.

Results

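The comparison between K-562 cells rescued with the D152V form of MYB and control K-562 cells rests on 3 libraries of each, 6 of the 12 libraries of the series, chosen by their titles. K-562 cells are a human leukemia line and express globins of the embryo and fetus. The siRNA_Control libraries come from cells stably expressing 3xTY1 that received the siGENOME non-targeting control siRNA. The D152V_Rescue libraries come from cells stably expressing 3xTY-D152V that received si2992, the siRNA also used in the knockdown. The groups therefore differ in stable line and in siRNA, and the 2 cannot be told apart here. All stable lines were selected with G418 at 200 µg/ml, RNA was taken 24 hours after transfection in 3 individual experiments, and poly(A)-selected libraries were sequenced as paired reads of 125 bases. Levels are also given for MYB_KnockDown (the 3xTY1 line with si2992) and MYB-WT_Rescue (a line stably expressing 3xTY-hcM, with si2992), 3 libraries each. The labels do not say whether a line is 1 clone or which promoter drives the tagged protein.

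MYB is a DNA-binding transcription factor that keeps hematopoietic progenitors dividing and undifferentiated, and its level falls as blood cells mature. It acts with coactivators such as p300 on promoters and enhancers of genes such as MYC, KIT and LMO2. D152V is named for an amino acid substitution in the DNA-binding domain, and the form has been reported to bind histones less well than wild-type MYB.

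Values are FPKM (fragments scaled by transcript length and by the number of mapped fragments) and read depth is unknown. FPKM totals of the 6 libraries ran from 681700 to 798360, mitochondrial genes held 10.5% to 20.4% of them, and libraries of a group correlated at r of at least 0.985 across genes. The erythroid factor GATA1 was present, between 100.3 and 138 FPKM, while adult HBB reached at most 0.604 FPKM. MYB_KnockDown replicate 1 stood apart from its group (r of 0.928 and 0.929) and enters no test of the 6 libraries. Its FPKM total was 1215600, beside 737870 and 727360 for replicates 2 and 3. The MYB_KnockDown means, SDs and medians given below include it.

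Across 12695 genes with at least 1 FPKM in at least 3 of the 6 libraries, limma called 1477 higher (11.6%) and 2133 lower (16.8%) in D152V_Rescue, 28.4% in all, at a Benjamini-Hochberg adjusted p under 0.05. The balance of the directions moved with the scaling, to 1749 higher and 1854 lower under quantile normalization and to 1826 higher and 1808 lower under median-ratio scaling. Changes are differences of log2(FPKM + 1), D152V_Rescue minus siRNA_Control, which understates changes of low genes, and their median over all tested genes was -0.04. A change of at least 1 was reached by 289 of the higher genes, and one of -1 or below by 187 of the lower genes. Groups did not overlap for 18.5% of tested genes that were higher and 26.8% that were lower. With 1 library left out in turn 920 to 1248 genes were called higher, the fewest without D152V_Rescue replicate 2, and 1291 to 1943 lower, the fewest without siRNA_Control replicate 2. A fit over all 12 libraries, whose spread includes MYB_KnockDown replicate 1, called 618 higher and 661 lower. Of the tested genes 204 passed the filter through D152V_Rescue only, and 174 of them were called higher. Through siRNA_Control only 103 passed, and 89 of them were called lower. Counts within gene lists are to be read beside the 11.6% higher and 16.8% lower of all tested genes.

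**Figure D1:**
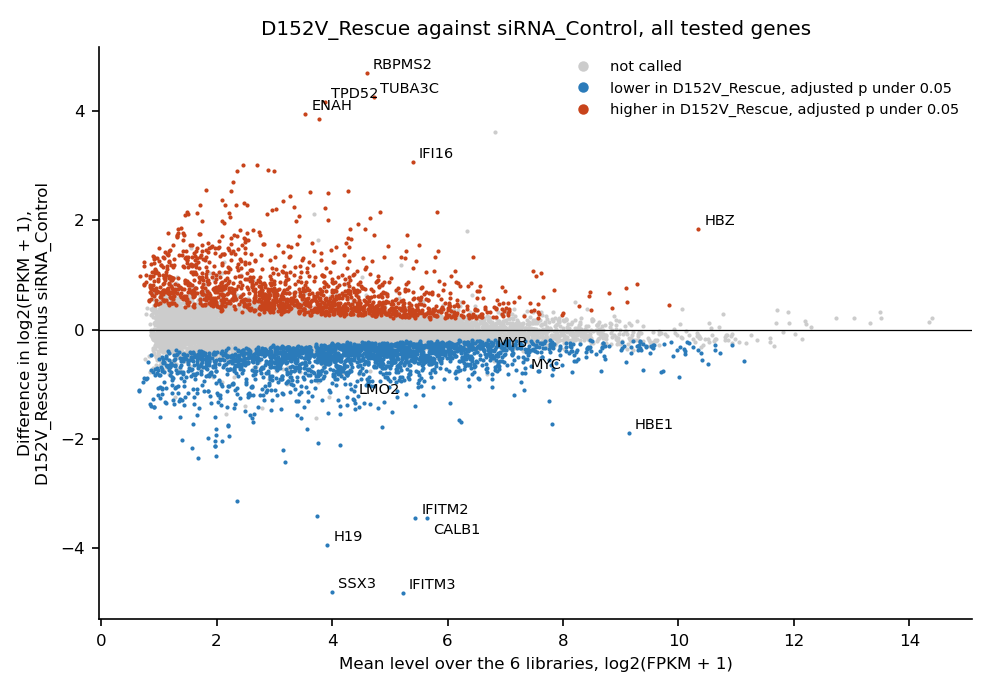
Mean level over the 6 libraries (x axis, log2(FPKM + 1)) against the log2 difference between D152V_Rescue and siRNA_Control (y axis), 1 point per tested gene, coloured where the adjusted p is under 0.05. IFITM3 and SSX3 lie lowest, at -4.82 and -4.80, and RBPMS2 highest, at 4.70.

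Promoter sequences are shown for 2 genes, MYADM from the MYB-associated genes and IFITM3 from the largest decreases, because each holds a match to the motif of its group. Each is the 250 bases before the first start that the RefSeq promoter table (GRCh38.p14) lists for the gene, printed on the strand of the gene. MYADM has several listed starts, and the one used lies inside the range of the gene, downstream of its first base. The MYADM window lies on the + strand at chr19:53866121-53866370, and the IFITM3 window on the - strand at chr11:320861-321110. Both strands were searched, and capitals mark matches to TAACNG, a core recognised by MYB, in MYADM, and to GAAANNGAAA, a core of the interferon-stimulated response element, in IFITM3.
MYADM: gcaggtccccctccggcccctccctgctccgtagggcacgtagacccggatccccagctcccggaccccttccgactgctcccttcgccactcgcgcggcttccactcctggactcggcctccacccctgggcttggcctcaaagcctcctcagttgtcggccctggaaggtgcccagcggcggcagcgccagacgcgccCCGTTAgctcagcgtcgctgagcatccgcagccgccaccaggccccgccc
IFITM3: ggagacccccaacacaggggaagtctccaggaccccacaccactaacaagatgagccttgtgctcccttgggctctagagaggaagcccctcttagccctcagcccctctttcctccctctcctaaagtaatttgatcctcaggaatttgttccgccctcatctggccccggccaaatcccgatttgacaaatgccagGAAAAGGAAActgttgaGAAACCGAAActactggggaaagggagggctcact
MYADM holds 1 match to TAACNG, on the other strand, 50 bases before the start, and IFITM3 holds 2 matches to GAAANNGAAA, 52 and 35 bases before it. TAACNG occurs in 17.6% of 27305 such windows, in 14.3% of those of tested genes, in 14.5% of those of genes called higher and in 14% of those called lower. GAAANNGAAA occurs in 3.07% of all windows, in 2.58% of those called higher and in 2.13% of those called lower. The windows of KIT and STAT5A hold no match to TAACNG. A match describes the letters and not a bound site.

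MYB itself (gene ENSG00000118513, GRCh38 chromosome 6, 135181308 to 135219172) was a little lower in the D152V line. It had 124, 132 and 104 FPKM in siRNA_Control replicates 1, 2 and 3, and 86.6, 86.2 and 100.4 FPKM in D152V_Rescue replicates 1, 2 and 3. All D152V_Rescue libraries lay below all control libraries, with replicate 3 of the 2 groups close together. The difference was -0.39 (SE 0.10, limma adjusted p = 0.0214), and its adjusted p ran from 0.0085 to 0.0943 over the alternatives. The call was lost without siRNA_Control replicate 1 (0.0685) or 2 (0.0776), without D152V_Rescue replicate 1 (0.0599) or 2 (0.0732), under quantile normalization (0.0624), without the filter (0.0719) and with all 12 libraries (0.0943). MYB averaged 124 ± 8.87 FPKM (SD, n = 3) in MYB-WT_Rescue, from which D152V_Rescue differed by -0.44 (adjusted p = 0.00892), and 30.2 ± 3.59 FPKM in MYB_KnockDown. The table has 1 value for MYB, so transcripts of the endogenous gene and of the tagged copy cannot be told apart.

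Genes that the literature names as MYB targets were lower more often than higher, as were all genes tested (16.8% lower and 11.6% higher). The list was chosen with earlier results of these data known, so its counts are a description. Of 22 listed, 15 passed the filter, 7 were lower and 1 was higher, with a median change of -0.12 (-0.06 under quantile normalization). In each fit that left out 1 library 7 were lower, and 4 were lower with all 12 libraries in the fit. The lower genes were MYC, LMO2, KIT, STAT5A, MYADM, TOP2A and CCNE1. The higher gene was KLF1, an erythroid transcription factor (0.31, limma adjusted p = 0.0439, 0.0256 to 0.493 over the alternatives). Its call was lost in each fit without 1 library except the one without siRNA_Control replicate 3.

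MYC, a transcription factor that drives growth and division, had 217, 218 and 178 FPKM in the control libraries and 127, 127 and 97.1 FPKM in the D152V_Rescue libraries. The groups do not overlap, and the difference was -0.80 (SE 0.12, limma adjusted p = 0.00214). D152V_Rescue was also below MYB-WT_Rescue (185 ± 8.0 FPKM, SD, n = 3), by -0.66 (adjusted p = 0.0037), and MYB_KnockDown averaged 96.7 ± 23.4 FPKM. LMO2 (GRCh38 chromosome 11, 33858576 to 33892076), a bridging protein of the GATA1 and TAL1 complex, showed a larger difference. It had 30.3, 22.3 and 31.1 FPKM in control and 12.7, 9.33 and 11 FPKM in D152V_Rescue (-1.26, SE 0.15, adjusted p = 0.000626). Against MYB-WT_Rescue (26.9 ± 2.09 FPKM) the difference was -1.22 (adjusted p = 0.000299). The D152V_Rescue mean of 11 ± 1.7 FPKM stood beside 12.3 ± 2.28 FPKM in MYB_KnockDown.

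KIT, the receptor of stem cell factor, was low throughout, with 5.02, 9.48 and 6.95 FPKM in control and 3.93, 3.73 and 2.97 FPKM in D152V_Rescue. All D152V_Rescue values were below the lowest control value. The difference was -0.81 (limma adjusted p = 0.0162, but 0.0706 without the filter and 0.0828 with all 12 libraries), and against MYB-WT_Rescue -1.11 (adjusted p = 0.00141). STAT5A (GRCh38 chromosome 17, 42287439 to 42311943), a transcription factor activated by cytokine receptors, had 159.6, 139 and 125 FPKM in control and 77.9, 81.5 and 64.7 FPKM in D152V_Rescue (-0.91, adjusted p = 0.000749), without overlap. Against MYB-WT_Rescue it differed by -0.80 (adjusted p = 0.00292). STAT5A and TOP2A, a topoisomerase of dividing cells (-0.65, adjusted p = 0.00188, 0.126 with all 12 libraries), lie in a stretch of chromosome 17 where most tested genes were lower, described further on. The part of that stretch in these values was not tested. CCNE1, a cyclin of entry into S phase, changed less (-0.43, adjusted p = 0.0157, 0.253 with all 12 libraries).

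MYADM, a myeloid-associated membrane protein, and UCA1, a long noncoding RNA, placed the groups in different orders. MYADM had 73.9, 66.8 and 55.7 FPKM in control and 34.4, 30.0 and 20.7 FPKM in D152V_Rescue (-1.20, limma adjusted p = 0.00174). MYB-WT_Rescue lay between, at 40.3 ± 9.05 FPKM (SD, n = 3), and its difference from D152V_Rescue missed the threshold (-0.50, adjusted p = 0.117, but 0.0025 with the replicate block and 0.0303 without MYB-WT_Rescue replicate 3). UCA1 had 111, 103 and 115 FPKM in control and 45.3, 45.5 and 72.9 FPKM in D152V_Rescue (-1.03, adjusted p = 0.00275). MYB-WT_Rescue was the highest group, at 174 ± 17.6 FPKM, and the difference from it was -1.68 (adjusted p = 0.000373). In both genes the control and D152V_Rescue libraries do not overlap.

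**Figure D2:**
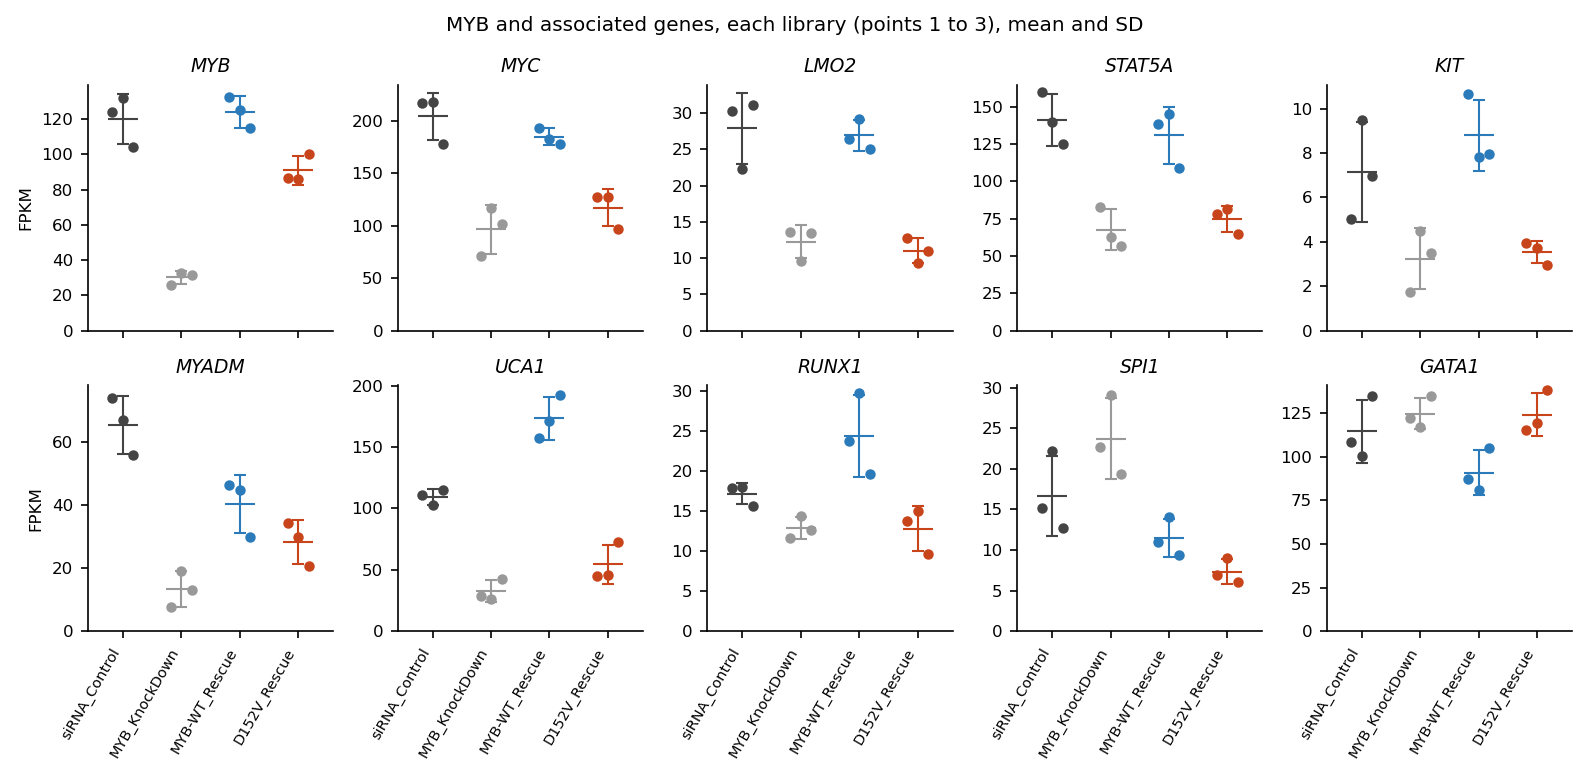
FPKM (y axis) of MYB and MYB-associated genes in the 4 groups (x axis), with each library as a point and lines for the mean and SD (n = 3). The D152V_Rescue libraries of LMO2, STAT5A, KIT and MYC all lie below the control libraries, with means of 11, 74.7, 3.54 and 117 FPKM beside 12.3, 67.5, 3.24 and 96.7 FPKM in MYB_KnockDown. The MYB_KnockDown means include its replicate 1, which stood apart from its group.

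Of 42 listed hematopoietic transcription factors, 26 passed the filter, 4 were higher and 7 lower (beside 11.6% and 16.8% of all genes tested), with 4 lower and 1 higher when all 12 libraries were fitted. SPI1, the master factor of myeloid cells, had 15.2, 22.2 and 12.7 FPKM in control and 6.92, 9.07 and 6.07 FPKM in D152V_Rescue (-1.06, limma adjusted p = 0.00549), without overlap, while MYB_KnockDown averaged 23.7 ± 4.98 FPKM (SD, n = 3). CBFB, the partner subunit of RUNX proteins, had 51.8, 54.4 and 48.8 FPKM in control and 28, 26 and 27 FPKM in D152V_Rescue (-0.91, adjusted p = 0.00013). Its D152V_Rescue libraries lay at about the same level as each other and well below control. LMO2, MYBL2 and IKZF1 (adjusted p = 0.157 with all 12 libraries) were among the other lower factors.

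RUNX1, a core factor of blood formation, had 17.9, 18.1 and 15.7 FPKM in control and 13.8, 15 and 9.67 FPKM in D152V_Rescue. The groups do not overlap, but the change of -0.42 missed the threshold (limma adjusted p = 0.068, 0.0165 to 0.202 over the alternatives). It passed with the replicate number as a block (0.0165) and without D152V_Rescue replicate 2 (0.0449). Against MYB-WT_Rescue it was lower (-0.88, adjusted p = 0.0104).

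The higher factors were SOX6, KLF3, KLF1 and LIN28B, of which SOX6 alone was called with all 12 libraries. SOX6, a repressor of embryonic globin, had 2.28, 1.81 and 2.27 FPKM in control and 7.7, 4.87 and 6.28 FPKM in D152V_Rescue (1.21, limma adjusted p = 0.00104), and averaged 0.722 FPKM in MYB-WT_Rescue (2.07, adjusted p = 0.000179). GATA1, GATA2 and TAL1, core factors of the erythroid program, were not called. GATA1 had 115 ± 18 FPKM (SD, n = 3) in control and 124 ± 12.2 FPKM in D152V_Rescue (adjusted p = 0.465). GATA2 had 66.3 ± 3.04 and 67.6 ± 10.4 FPKM (adjusted p = 0.924), and TAL1 36.7 ± 1.95 and 34.4 ± 1.47 FPKM (adjusted p = 0.397).

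Globin genes held a large decrease and a large increase. HBE1, the embryonic beta-type globin (GRCh38 chromosome 11, 5268345 to 5269945), had 899.5, 509 and 1219.9 FPKM in control and 151, 168 and 428 FPKM in D152V_Rescue (-1.89, SE 0.42, limma adjusted p = 0.0108, 0.064 without the filter). HBZ, the embryonic alpha-type globin (GRCh38 chromosome 16, 152644 to 154503), had 564, 343 and 854 FPKM in control and 1923, 1506 and 2605 FPKM in D152V_Rescue (1.84, SE 0.31, adjusted p = 0.00328, 0.0625 with all 12 libraries). Neither gene had overlapping groups, and replicate 3 was the highest library in each group for both. D152V_Rescue was above MYB-WT_Rescue for both genes, by 2.05 for HBE1 (MYB-WT_Rescue mean 54.2 ± 16 FPKM, SD, n = 3, adjusted p = 0.00488) and by 1.68 for HBZ (adjusted p = 0.0168). The latter call was lost without MYB-WT_Rescue replicate 1 (0.0521), without D152V_Rescue replicate 3 (0.0505), without the filter (0.0792) and with all 12 libraries (0.0746). HBE1 in D152V_Rescue thus lay between control and MYB-WT_Rescue. MYB_KnockDown averaged 2049 ± 1243 FPKM for HBE1 and 1128 ± 625 FPKM for HBZ.

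The other globin genes stood closer to control. Of 11 in the list 9 passed the filter, with HBZ and HBA1 higher and HBE1 and AHSP lower (0 higher and 1 lower with all 12 libraries, 1 and 1 without the filter). HBA1 had 282, 226 and 282 FPKM in control and 369, 302 and 405 FPKM in D152V_Rescue (0.44, limma adjusted p = 0.0305, 0.00129 to 0.8 over the alternatives). The call was lost without siRNA_Control replicate 2 and without D152V_Rescue replicate 1 or 3. AHSP, a chaperone of alpha globin, had 2.77, 2.34 and 4.85 FPKM and 0.939, 0.664 and 1.37 FPKM (-1.09, adjusted p = 0.00866, 0.139 with all 12 libraries). The fetal globins HBG1 (adjusted p = 0.99) and HBG2 (0.343) and the adult HBA2 (0.88) were not called, and HBG2 passed with the replicate block (0.00582, 0.00582 to 0.82 over the alternatives). HBG1 and HBG2 share nearly all their sequence, as do HBA1 and HBA2, which leaves the split of each pair uncertain.

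**Figure D3:**
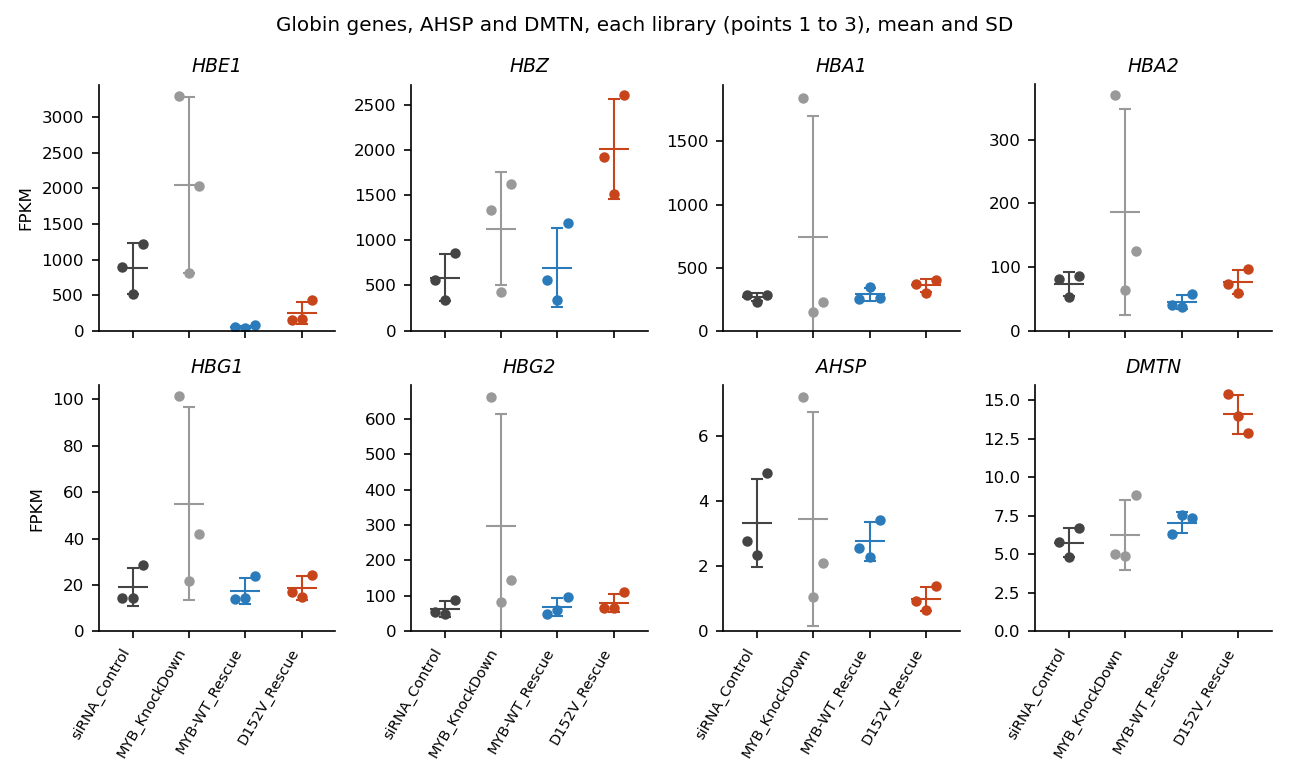
FPKM (y axis) of globin and red cell genes in the 4 groups (x axis), with each library as a point and lines for the mean and SD (n = 3). For HBZ the lowest D152V_Rescue library lies above the highest control library (854 FPKM), and for HBE1 the highest D152V_Rescue library (428 FPKM) lies below the lowest control library.

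Genes of the red cell membrane and of erythroid maturation gave 4 higher and 4 lower of 29 tested, shares near the 11.6% and 16.8% of all genes, with a median of -0.03 that became 0.01 under quantile normalization. With the replicate block 8 were higher, and without siRNA_Control replicate 3 there were 7. The lower count was 1 with all 12 libraries and 2 without the filter. DMTN, dematin of the membrane skeleton, had 5.8, 4.8 and 6.7 FPKM in control and 15.4, 14 and 12.9 FPKM in D152V_Rescue (1.16, limma adjusted p = 0.000431). The groups do not overlap. The other higher genes were ALAS2, KEL and BPGM, and ADD1 and EPB41 of the membrane skeleton were among the lower. With all 12 libraries BPGM (0.343), ADD1 (0.337) and EPB41 (0.624) were not called.

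HEMGN, a nuclear protein of erythroid cells, had 153, 106 and 144 FPKM in control and 124, 122 and 157 FPKM in D152V_Rescue, with overlapping groups (limma adjusted p = 0.967), and differed from MYB-WT_Rescue by 0.94 (adjusted p = 0.00123). Against MYB-WT_Rescue 13 of the 29 genes were higher in D152V_Rescue and 2 lower, beside 11.4% and 14.6% of all genes tested there. The comparisons with control and with MYB-WT_Rescue share the D152V_Rescue libraries.

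Beside the 11.6% higher and 16.8% lower of all genes tested, heme synthesis had 4 higher and 4 lower of 14 tested. The counts were 1 and 2 with all 12 libraries, and 2 were higher without the filter. The higher genes were enzymes, among them ALAS2, UROD (adjusted p = 0.202 with all 12 libraries and 0.0521 without the filter) and PPOX (0.351 with all 12 libraries). ALAS2, the erythroid form of the first enzyme, had 53.4, 54.9 and 66.1 FPKM in control and 88.6, 93.7 and 128 FPKM in D152V_Rescue (0.81, limma adjusted p = 0.00385). The lower genes were mitochondrial membrane proteins, among them ABCB10, SLC25A39 and SLC25A38 (0.153 with all 12 libraries). SLC25A39 (-0.66) lies in the mostly lower stretch of chromosome 17, and the part of that stretch in its value was not tested. ABCB10 had 22.9, 21.8 and 24.3 FPKM and 13.3, 14.1 and 11.1 FPKM (-0.80, adjusted p = 0.000859), and neither pair of groups overlaps. Of 18 iron genes 2 were higher and 3 lower, near the shares of all genes. The lower count was 1 without siRNA_Control replicate 1 or 2 and 6 with the replicate block, and with all 12 libraries both counts were 0. Among the lower genes was the iron exporter SLC40A1 (28.5 ± 4.29 and 15 ± 3.72 FPKM, SD, n = 3, -0.90, adjusted p = 0.00532, 0.228 with all 12 libraries).

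The largest changes were sought among called genes with groups apart and a mean of at least 5 FPKM. The largest decrease was that of IFITM3, a membrane protein that restricts virus entry. IFITM3 had 59.4, 74.3 and 79.7 FPKM in control and 1.29, 1.61 and 1.72 FPKM in D152V_Rescue, a 46.1-fold lower mean (-4.82, SE 0.13, limma adjusted p = 3.51e-07). Its paralogue IFITM2 had 79.8, 84.1 and 72.4 FPKM in control and 5.75, 6.87 and 6.34 FPKM in D152V_Rescue (-3.45, adjusted p = 3.51e-07). Both were nearly uniform within each group and far apart between them. Against MYB-WT_Rescue IFITM3 differed by -1.59 (adjusted p = 0.000127), at 6.64 ± 0.329 FPKM (SD, n = 3) in that group and 82.3 ± 5.8 FPKM in MYB_KnockDown. IFITM1, a further paralogue, had 171, 155 and 188 FPKM and 157, 160.1 and 160.4 FPKM, with overlapping groups (adjusted p = 0.375). The paralogues are similar in sequence, so their separate values carry some uncertainty.

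SSX3, a cancer-testis antigen, and H19 passed the filter only through control, the group where they were high. SSX3 had 30.1, 31.5 and 27.8 FPKM in control and 0.219, 0 and 0.0967 FPKM in D152V_Rescue (-4.80, limma adjusted p = 3.51e-07). H19 (GRCh38 chromosome 11, 1995176 to 2001266), an imprinted noncoding RNA, had 31.2, 30.7 and 20.4 FPKM in control and 0.959, 0.802 and 0.683 FPKM in D152V_Rescue (-3.95, adjusted p = 3.78e-06). The other groups had more H19, at 47.2 ± 22.9 FPKM (SD, n = 3) in MYB_KnockDown and 96.7 ± 37.4 FPKM in MYB-WT_Rescue, and D152V_Rescue differed from the latter by -5.67 (adjusted p = 1.16e-05). CALB1, a calcium-binding protein, had 87, 98.9 and 86.9 FPKM in control and 6.19, 8.34 and 8.06 FPKM in D152V_Rescue (-3.44, adjusted p = 1.12e-06). For CALB1 the MYB-WT_Rescue mean was also low (11.8 ± 4.24 FPKM), and the rescue lines did not differ by a called amount (-0.53, adjusted p = 0.148, but 0.00662 without MYB-WT_Rescue replicate 3).

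PIGY, a subunit of GPI anchor synthesis, had 29.5, 23.9 and 16.1 FPKM in control and 2.22, 2.36 and 0 FPKM in D152V_Rescue (-3.41, limma adjusted p = 0.000876), where replicate 3 was listed at 0. LYZ, the lysozyme of myeloid cells, had 15.6, 23.1 and 24.1 FPKM and 3.42, 4.13 and 5.04 FPKM (-2.07, adjusted p = 0.000179). PSAP, the precursor of lysosomal saposins, was the most abundant of these after HBE1, with 301, 359 and 375 FPKM in control and 89.3, 105 and 117 FPKM in D152V_Rescue (-1.73, adjusted p = 5.78e-05). As with CALB1, MYB-WT_Rescue (124 ± 2.92 FPKM, SD, n = 3) was also below control, and its difference from D152V_Rescue missed the threshold (-0.26, adjusted p = 0.0894, but 0.0434 with the replicate block and 0.036 without D152V_Rescue replicate 3). HBE1, the lipid transfer protein PLTP (-2.2), the adhesion molecule MCAM (-2.1) and NKIRAS2, an inhibitor of NF-kappa-B signalling (-1.78), complete the 12 largest decreases. PLTP and NKIRAS2 lie in mostly lower stretches of chromosomes 20 and 17.

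The largest increases were of genes that were low in control. RBPMS2, an RNA-binding protein, had 0.502, 0.784 and 1.17 FPKM in control and 45.8, 43.3 and 47.7 FPKM in D152V_Rescue (4.70, SE 0.14, limma adjusted p = 6.57e-07). TUBA3C, an alpha tubulin, had 1.02, 1.7 and 2.2 FPKM and 53.2, 56.6 and 37.6 FPKM (4.25, adjusted p = 6.7e-06), and its near-identical copies make its own value uncertain. TPD52, a protein of vesicle traffic, had 1.0, 0.259 and 0.438 FPKM and 26.6, 25.1 and 28.3 FPKM (4.17, adjusted p = 3.28e-06). In each of these every D152V_Rescue library lay far above every control library, though groups apart were a condition for this choice of genes. ENAH, an actin regulator, passed the filter only through D152V_Rescue, as did SCN2A and ALDH1L1, named further on. ENAH had 0.455, 0.462 and 0.303 FPKM and 16.1, 22.3 and 24.1 FPKM (3.94, adjusted p = 3.03e-06).

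IFI16, a nuclear DNA sensor, had 7.83, 8.44 and 7.56 FPKM in control and 66.5, 72.1 and 84.3 FPKM in D152V_Rescue (3.07, limma adjusted p = 1.12e-06), and was also above MYB-WT_Rescue (27.2 ± 3.63 FPKM, SD, n = 3; 1.42, adjusted p = 0.000175). LIF, a cytokine, varied widely within its group, with 0.528, 1.38 and 0.296 FPKM in control and 19.1, 15.7 and 5.01 FPKM in D152V_Rescue (2.91, adjusted p = 0.00164). CTAG2, a cancer-testis antigen, had 3.46, 3.15 and 4.17 FPKM and 26.8, 24.7 and 22.9 FPKM (2.49, adjusted p = 5.74e-06). The groups of these 3 genes are apart, as the choice of the largest changes required. The sodium channel subunit SCN2A (3.01), the folate enzyme ALDH1L1 (2.92), ABRACL (2.53), the transcription factor SP6 (2.53) and the kinase PAK1 (2.44) complete the 12.

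In MYB_KnockDown, which shares the 3xTY1 line with control, the mean level was nearer to control than to D152V_Rescue for all 12 largest increases and for 10 of the 12 largest decreases, the exceptions being NKIRAS2 and PSAP, on both the FPKM and the log2(FPKM + 1) scale. For MYB-WT_Rescue the answer depended on the scale. On the log2(FPKM + 1) scale its mean was nearer to control for 10 of the increases (not IFI16 and PAK1) and 8 of the decreases (not CALB1, HBE1, IFITM3 and PSAP), and on the FPKM scale for all 12 increases and 3 of the decreases (H19, PLTP and MCAM). Since D152V_Rescue chose these genes, the counts are a description without a test.

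Interferon-induced genes as a list did not share the direction of IFITM3 and IFITM2. Of 30 listed, 17 passed the filter, 5 were higher and 2 lower (beside 11.6% and 16.8% of all genes tested), with a median of 0.33. With the replicate block 8 were higher, and 3 without D152V_Rescue replicate 2 or 3, without the filter or with all 12 libraries. IFI16, ISG20 and IFIH1 were among the higher genes, and IFIH1, which senses double-stranded RNA, passed the filter only through D152V_Rescue. ISG20, an exonuclease acting on viral RNA, had 1.11, 0.523 and 1.05 FPKM in control and 2.72, 4.63 and 5.98 FPKM in D152V_Rescue (1.49, limma adjusted p = 0.00254). OAS1, OAS2, IFI44 and IFI44L were listed at 0 in all 6 libraries, as was the mitochondrial gene MT-CO3, so a listed 0 need not mean absence.

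Markers of other blood cells were few. Of 26 monocyte, granulocyte and mast cell markers 6 passed the filter, none was higher, and LYZ, CD68 and CD33 were lower. CD33, a myeloid surface receptor, had 20.7, 23.2 and 16.3 FPKM in control and 11.3, 11.1 and 9.48 FPKM in D152V_Rescue (-0.85, limma adjusted p = 0.0024), without overlap. ELANE, CTSG, S100A8, TPSAB1 and CPA3 were listed at 0 in all 6 libraries, and the summed list ran from 93.8 to 135 FPKM in control and from 47.5 to 60.1 FPKM in D152V_Rescue. In bulk RNA, fewer cells of a type and less RNA per cell cannot be told apart, and the part of other cells was not tested.

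Of 18 lymphoid markers 4 passed the filter, and 2 chains of the T cell receptor complex were higher. CD3D had 23.4, 18.4 and 17 FPKM in control and 77.2, 85.6 and 109.6 FPKM in D152V_Rescue (2.15, limma adjusted p = 6.83e-05). CD3G passed the filter only through D152V_Rescue, with 0.439, 0.159 and 0.462 FPKM and 4.55, 6.13 and 10.9 FPKM (2.53, adjusted p = 0.000329). Both were higher in all D152V_Rescue libraries than in any control library. CD3E reached at most 0.471 FPKM, CD8A and MS4A1 were listed at 0 in all 6 libraries, and the summed list ran from 21.5 to 28.8 FPKM in control and from 85.6 to 125 FPKM in D152V_Rescue. Of 16 fibroblast and epithelial markers 4 passed, with EPCAM lower (58 ± 1.8 and 34.2 ± 1.99 FPKM, SD, n = 3, adjusted p = 0.000258, 0.202 with all 12 libraries). PDGFRA, THY1, KRT5 and KRT14 were listed at 0, and the summed list ran from 190.1 to 213 FPKM in control and from 177 to 211 FPKM in D152V_Rescue.

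Of 27 megakaryocyte and platelet genes listed 10 were tested, with 4 higher and 2 lower, beside 11.6% and 16.8% of all genes tested. SRGN, the proteoglycan serglycin, had 116, 120.3 and 132 FPKM in control and 239.5, 216 and 276 FPKM in D152V_Rescue (0.98, limma adjusted p = 0.000278), without overlap. THBS1 (1.63), CD9 (1.32) and PEAR1 (0.85, adjusted p = 0.103 with all 12 libraries), proteins of the platelet or its surface, were the other higher genes. CD9 passed the filter only through D152V_Rescue, and 1 of the lower genes only through control. The lower count was 0 without siRNA_Control replicate 1 or 3, and 1 without siRNA_Control replicate 2 or D152V_Rescue replicate 1 or 2, without the filter or with all 12 libraries. The lineage genes GP9, PF4 and SELP were listed at 0 in all 6 libraries.

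Cytokine receptors and JAK-STAT genes gave 2 higher and 6 lower of 24 tested, beside 11.6% and 16.8% of all genes tested. The higher count was 7 without D152V_Rescue replicate 3 and 6 with the replicate block. With all 12 libraries 0 were higher and 2 lower. STAT5B, next to STAT5A on chromosome 17, had 33.9, 28.5 and 32.6 FPKM in control and 16.3, 15.8 and 15.7 FPKM in D152V_Rescue (-0.95, limma adjusted p = 0.000207). The groups are far apart, in the same mostly lower stretch as STAT5A. PTPN6, a phosphatase that dampens receptor signalling, passed the filter only through control (-1.01, adjusted p = 0.00854, 0.0691 with all 12 libraries). CISH, a feedback inhibitor whose transcription follows STAT5, was higher (36.5 and 53.9 FPKM on average, 0.54, adjusted p = 0.00328, 0.0961 with all 12 libraries). The receptor EPOR (adjusted p = 0.532) and JAK2 (0.0542) were not called, though JAK2 passed without D152V_Rescue replicate 3 (0.0388) and with the block (0.0404). Outside the mostly lower stretches 4 of 21 were lower and 2 higher.

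Genes of the MYC network and program were lower for 17 of 35 tested and higher for none, beside 16.8% and 11.6% of all genes. Their median was -0.24 (-0.13 under quantile normalization). The count was 10 without siRNA_Control replicate 2, 10 without the filter and 3 with all 12 libraries. Beside MYC, the paralogue MYCL had 2.95, 2.94 and 3.1 FPKM in control and 1.26, 1.23 and 1.41 FPKM in D152V_Rescue (-0.80, limma adjusted p = 0.00175). The nucleolar protein NOLC1 (-0.47), the polyamine enzymes ODC1 (-0.33) and SRM (-0.51) and the lactate dehydrogenase LDHA (-0.55) were among the others. These 4 were not called with all 12 libraries (adjusted p = 0.0873, 0.378, 0.578 and 0.105). MAX, the partner of MYC, was not called (-0.18, adjusted p = 0.246, 0.0352 with the replicate block). Outside the mostly lower stretches 14 of 32 were lower.

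Cytosolic ribosomal proteins were lower for 21 of 44 genes and higher for none, beside 16.8% and 11.6% of all genes tested. Their median was -0.23 (-0.13 under quantile normalization). The count moved with single libraries and with the fit: 7 without siRNA_Control replicate 2, 9 without siRNA_Control replicate 3, 9 under quantile normalization, 7 without the filter, 1 with all 12 libraries and 32 with the replicate block. RPL27, which lies in the chromosome 17 stretch, had 1234, 1423 and 1343 FPKM in control and 755, 762 and 676 FPKM in D152V_Rescue (-0.87, limma adjusted p = 0.000268), without overlap. RPL19 (-0.78, 0.0537 with all 12 libraries) lies there too, and RPL22 (-0.73, 0.105) in a mostly lower stretch of chromosome 1. The summed share of listed ribosomal protein genes ran from 6.85% to 8.87% of FPKM over the 6 libraries.

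Replication-dependent and linker histone genes, whose transcripts mostly lack a poly(A) tail, were higher for 12 of 16 tested and lower for none, with a median of 0.75. Of all genes tested 11.6% were higher and 16.8% lower. All 16 changes of the list were above 0, and 27 genes were listed. H2BC21 had 21.3, 16.8 and 27.4 FPKM in control and 52, 58.2 and 90.0 FPKM in D152V_Rescue (1.55, limma adjusted p = 0.00143). The linker histone H1-2 had 101, 92.6 and 141 FPKM and 175, 212 and 339.9 FPKM (1.08, adjusted p = 0.011, 0.000666 to 0.135 over the alternatives). Neither overlaps, and replicate 3 was highest in both groups. The summed list ran from 686 to 852 FPKM in control and from 1117 to 1754 FPKM in D152V_Rescue. The count was 6 without siRNA_Control replicate 1 or 2, 5 without the filter and 3 with all 12 libraries. Near-identical histone copies have uncertain separate values.

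MYB cofactors and histone acetylation genes were lower for 12 of 39 tested and higher for 2, beside 16.8% and 11.6% of all genes. The higher count was 1 without siRNA_Control replicate 1 or 2, and with all 12 libraries 5 were lower and 0 higher. KAT2A, a histone acetyltransferase, had 33.2, 29 and 36.6 FPKM in control and 17.2, 14.7 and 18.3 FPKM in D152V_Rescue (-0.93, limma adjusted p = 0.000641), and lies in the chromosome 17 stretch. The corepressor SKI (-0.78, adjusted p = 0.273 with all 12 libraries) and the TFIID subunit TAF12 (-0.76) lie in the stretches of chromosome 1. The coactivator EP300, which binds MYB, had 8.84 ± 0.447 and 8.59 ± 0.634 FPKM (SD, n = 3, adjusted p = 0.799). Outside the stretches 8 of 35 were lower.

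**Figure D4:**
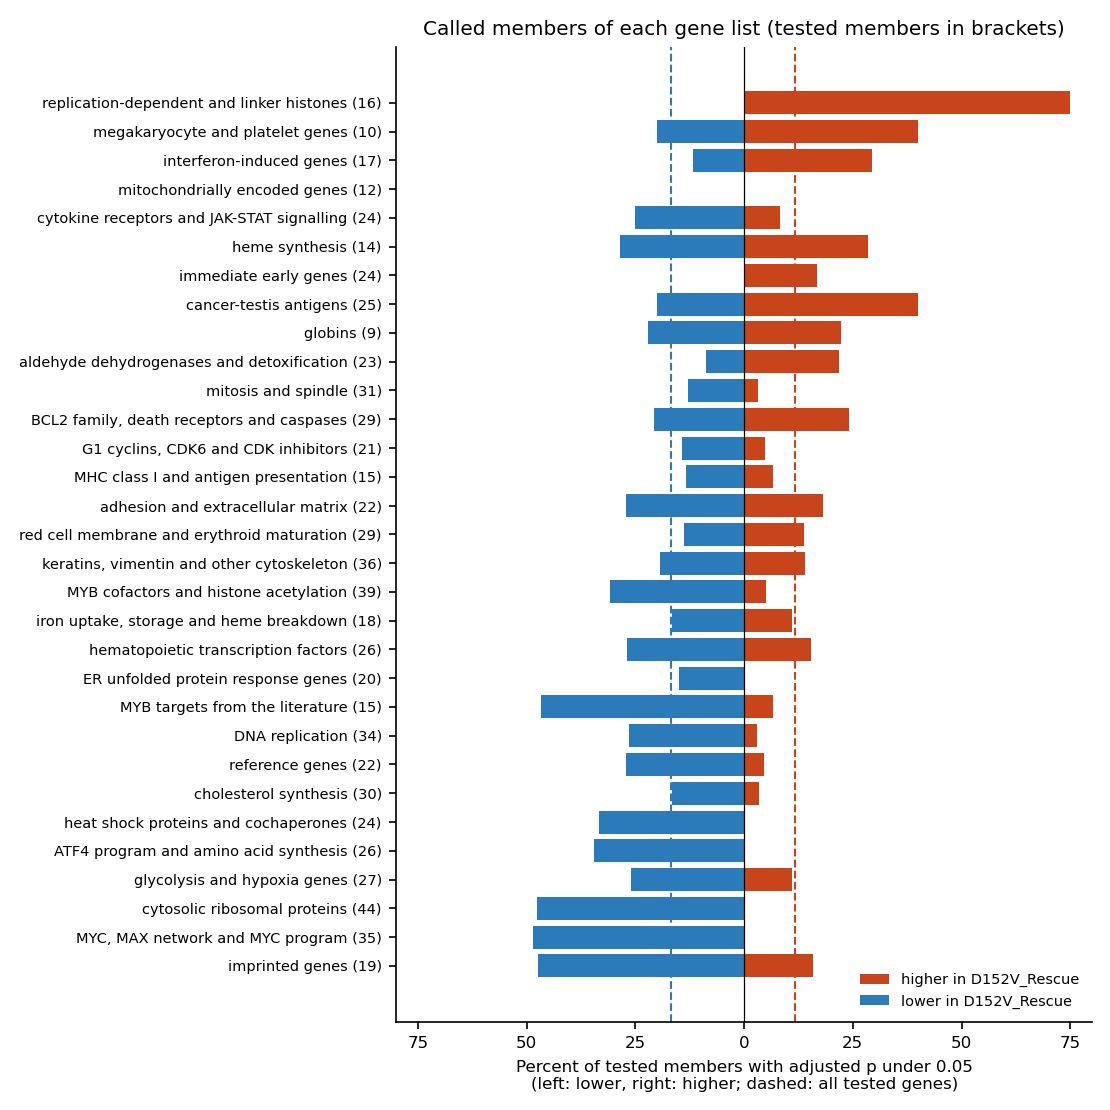
Percent of the tested members called lower and higher in D152V_Rescue, for 31 gene lists with at least 9 tested members, with dashed lines at the 16.8% and 11.6% of all tested genes. The histone list has the largest share of higher genes (12 of 16), and the MYC program (17 of 35), ribosomal protein (21 of 44), imprinted (9 of 19) and MYB target (7 of 15) lists the largest shares of lower genes. Of the 9 imprinted genes 4 passed the filter only through control, which favours a lower call. The lists were chosen with earlier results of these data known.

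Genes of survival and cell death gave 7 higher and 6 lower of 29 tested, beside 11.6% and 16.8% of all genes tested. There were 4 higher without D152V_Rescue replicate 2 or 3 and 2 lower without siRNA_Control replicate 2. With all 12 libraries 4 were higher and 2 lower, and without the filter 3 were lower. BCL2L1, the gene of the survival protein BCL-XL, had 65.7, 70.5 and 67.4 FPKM in control and 112, 119 and 105 FPKM in D152V_Rescue (0.71, limma adjusted p = 0.000278). BCL2L11, the gene of the death-promoting BIM, had 8.23, 10.7 and 7.89 FPKM and 4.1, 3.94 and 4.01 FPKM (-0.97, adjusted p = 0.000876). Neither overlaps. FAS (1.11) and BCL2A1 (0.87) passed the filter only through D152V_Rescue, the latter with 0.0811, 0.333 and 0.231 FPKM in control and 1.28, 1.138 and 1.23 FPKM in D152V_Rescue. BAD, a further death-promoting member, was not called (adjusted p = 0.942). Among G1 genes CDKN1A, the cell cycle inhibitor p21, was higher (2.64 ± 1.0 and 6.07 ± 0.96 FPKM, SD, n = 3, adjusted p = 0.00667), and 3 were lower, CCNE1 among them.

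The ATF4 program of amino acid synthesis was lower for 9 of 26 tested and higher for none, beside 16.8% and 11.6% of all genes. With all 12 libraries 3 were lower. SHMT2, the mitochondrial serine hydroxymethyltransferase, had 196, 199 and 215 FPKM in control and 108, 104 and 101 FPKM in D152V_Rescue (-0.95, limma adjusted p = 6.49e-05). PSAT1, an enzyme of serine synthesis, had 34, 34.1 and 31.5 FPKM and 15.5, 17.5 and 14.5 FPKM (-1.03, adjusted p = 0.000179). The groups of both are apart. Of 24 heat shock genes 8 were lower (5 without siRNA_Control replicate 1 or 3, 5 under quantile normalization, 2 with all 12 libraries), led by DNAJB6 (-0.55) and HSP90AA1 (-0.48). Of 30 genes of cholesterol and lipid synthesis 5 were lower, near the 16.8% of all genes tested, and 1 was higher. The lower count was 9 with the replicate block and 3 with all 12 libraries.

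Glycolysis and hypoxia genes gave 3 higher and 7 lower of 27 tested, beside 11.6% and 16.8% of all genes tested. The lower count was 4 without siRNA_Control replicate 1 or 3 or under quantile normalization, and 12 with the replicate block. Under quantile normalization 5 were higher, and with all 12 libraries 1 was higher and 3 lower. BNIP3, a mitophagy receptor induced by hypoxia, had 35.5, 27.6 and 34.6 FPKM in control and 12.5, 11.3 and 12.7 FPKM in D152V_Rescue (-1.35, limma adjusted p = 0.00014). The glucose transporter SLC2A3 had 55.6, 39.3 and 52.9 FPKM and 89.9, 95.9 and 84.3 FPKM (0.87, adjusted p = 0.00155), in the other direction. ALDH1A1, a retinaldehyde dehydrogenase, was not called (70.6 ± 10.5 and 58 ± 8.02 FPKM, SD, n = 3, adjusted p = 0.142, 0.0339 with the replicate block). Its level was far above the 3.86 ± 1.66 FPKM of MYB-WT_Rescue (3.64, adjusted p = 2.92e-05). ABCG2, a drug efflux pump, passed the filter only through D152V_Rescue, with 0.176, 0.214 and 0.193 FPKM in control and 2.37, 3.73 and 3.28 FPKM in D152V_Rescue.

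Imprinted genes were lower for 9 of 19 tested and higher for 3, beside 16.8% and 11.6% of all genes tested. Their median was -0.40, and 36 were listed. Of the 9, 4 passed the filter only through control, and 4 were called without any 1 control library, when fewer of them are tested. Under quantile normalization 5 were higher. DLK1, a Notch ligand-like protein of progenitors, and NDN, which encodes necdin, passed the filter only through control. DLK1 had 4.04, 5.56 and 7.97 FPKM in control and 0.407, 0.514 and 0.991 FPKM in D152V_Rescue (-2.04, limma adjusted p = 0.000462). NDN had 1.73, 2.3 and 2.1 FPKM in control and was listed at 0 in the 3 D152V_Rescue libraries. UBE3A, a ubiquitin ligase, was lower at a higher level, with 43.5, 45.1 and 42.8 FPKM in control and 23.8, 26.3 and 25 FPKM in D152V_Rescue (adjusted p = 0.000207). GAB1 and NAP1L5 were among the higher genes.

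Cancer-testis antigens, germ line genes that tumours can express, were higher for 10 of 25 tested and lower for 5. Of all genes tested against control 11.6% were higher and 16.8% lower, and 47 antigens were listed. The lower count was 2 without siRNA_Control replicate 2 and 3 without siRNA_Control replicate 1 or 3, and the higher count 5 with all 12 libraries. MAGEA1 had 27.7, 30.4 and 30.5 FPKM in control and 79.3, 90.8 and 77.2 FPKM in D152V_Rescue (1.45, limma adjusted p = 2.94e-05). PASD1, which passed the filter only through control, had 5.79, 5.66 and 5.48 FPKM and 0.243, 0.358 and 0.41 FPKM (-2.31, adjusted p = 1.62e-05), so the 2 genes moved apart. Against MYB-WT_Rescue 17 of the 25 were higher and 2 lower, beside 11.4% and 14.6% of all genes tested there. These families hold near-identical copies with uncertain separate values.

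Adhesion and matrix genes gave 4 higher and 6 lower of 22 tested, beside 11.6% and 16.8% of all genes tested. With all 12 libraries the counts were 2 and 4. SPP1, the secreted protein osteopontin, passed the filter only through D152V_Rescue, with 0.34, 0.0551 and 0.0701 FPKM in control and 6.62, 6.07 and 13.9 FPKM in D152V_Rescue (3.02, limma adjusted p = 0.000207). LAMB1, a laminin chain, had 5.2, 5.28 and 7.81 FPKM and 0.742, 0.948 and 1.57 FPKM (-1.77, adjusted p = 0.000454). In the cytoskeleton list 5 of 36 were higher (9 under quantile normalization, 10 with the replicate block, 2 with all 12 libraries) and 7 lower (4 with all 12 libraries). These counts are near the shares of all genes tested, 11.6% higher and 16.8% lower. S100A10, a calcium-binding protein of the cell cortex, had 4.52, 4.61 and 6.7 FPKM and 16, 16.5 and 21.1 FPKM (1.59, adjusted p = 0.000285, 0.083 with all 12 libraries), and vimentin, VIM, was not called (adjusted p = 0.796).

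Immediate early genes, which respond quickly to growth signals, were higher for 4 of 24 tested and lower for none (2 higher without D152V_Rescue replicate 1 or 2 or with all 12 libraries, 7 with the replicate block). BTG2, an antiproliferative gene, had 9.9, 9.24 and 10.9 FPKM in control and 18.8, 20.9 and 19.9 FPKM in D152V_Rescue (0.93, limma adjusted p = 0.000278), without overlap. DNA replication genes were lower for 9 of 34 and higher for 1, beside 16.8% and 11.6% of all genes tested. The lower count was 4 without siRNA_Control replicate 2 and 3 with all 12 libraries. FEN1, the flap endonuclease, had 81.6, 94.6 and 94.4 FPKM and 47, 63 and 49 FPKM (-0.76, adjusted p = 0.00199). Of 31 mitosis genes 4 were lower and 1 higher, beside 16.8% and 11.6% of all genes tested. Of the 4, 3 lie in the stretches of chromosomes 15 and 17. The balance turned with the scaling, to 5 higher and 2 lower under quantile normalization and 4 higher and 2 lower under median-ratio scaling, and was 9 higher and 6 lower with the replicate block and 0 and 0 with all 12 libraries. Of 22 reference genes, often used as stable standards, 6 were lower and 1 higher (2 lower without siRNA_Control replicate 2, 3 under quantile normalization, 0 with all 12 libraries), with a median of -0.15 that became 0.01 under quantile normalization.

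Lower genes were dense along some chromosomes. In 13 of 272 windows of 5 Mb with at least 15 tested genes (GRCh38 positions, from RefSeq by symbol), at least 50% of tested genes were called lower. These windows were chosen from the values, so what follows is a description. They hold 534 tested genes, of which 347 were lower (65.0%) and 12 higher. Outside them 14.7% of 12161 tested genes were lower and 12% higher, with a median of -0.03. The windows join into 6 stretches. In the other direction 1 window, on chromosome X from 135 to 140 Mb, had 10 of 19 tested genes higher (52.6%) and 0 lower.

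The stretch of chromosome 17 from 35 to 45 Mb held 131 tested genes, 90 lower and 3 higher, with a median change of -0.55. Before it, from 0 to 35 Mb, 19.2% of genes were lower, and after it, from 45 to 85 Mb, 21.4%. In the same stretch the median difference from control was -0.06 for MYB-WT_Rescue and -0.12 for MYB_KnockDown, and 79 of 130 genes were lower in D152V_Rescue than in MYB-WT_Rescue. STAT5A, STAT5B, KAT2A, NKIRAS2, KRT10, SLC25A39, TOP2A, RPL19 and RPL27 lie here, with changes between -0.65 and -1.78. The naming rule mostly picked genes with large changes. Their values therefore cannot show whether they changed more than the stretch, whose median was -0.55.

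The start of chromosome 1 was lower from 0 to 20 Mb (98 of 145 genes, median -0.49) and from 25 to 35 Mb (54 of 100, median -0.38), while from 35 to 125 Mb 11.1% of genes were lower. On chromosome 15, 71 of 98 genes from 30 to 45 Mb were lower (median -0.52), and 9.77% of genes from 45 to 105 Mb. MYB-WT_Rescue had medians of -0.48 and -0.46 against control in these 2 parts of chromosome 15. D152V_Rescue and MYB-WT_Rescue thus differed by a median of -0.01 in the first part and 0.49 in the other. Chromosome 20 from 40 to 50 Mb had 29 of 50 genes lower (median -0.46), and chromosome 19 from 20 to 25 Mb 11 of 19 (median -0.58).

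**Figure D5:**
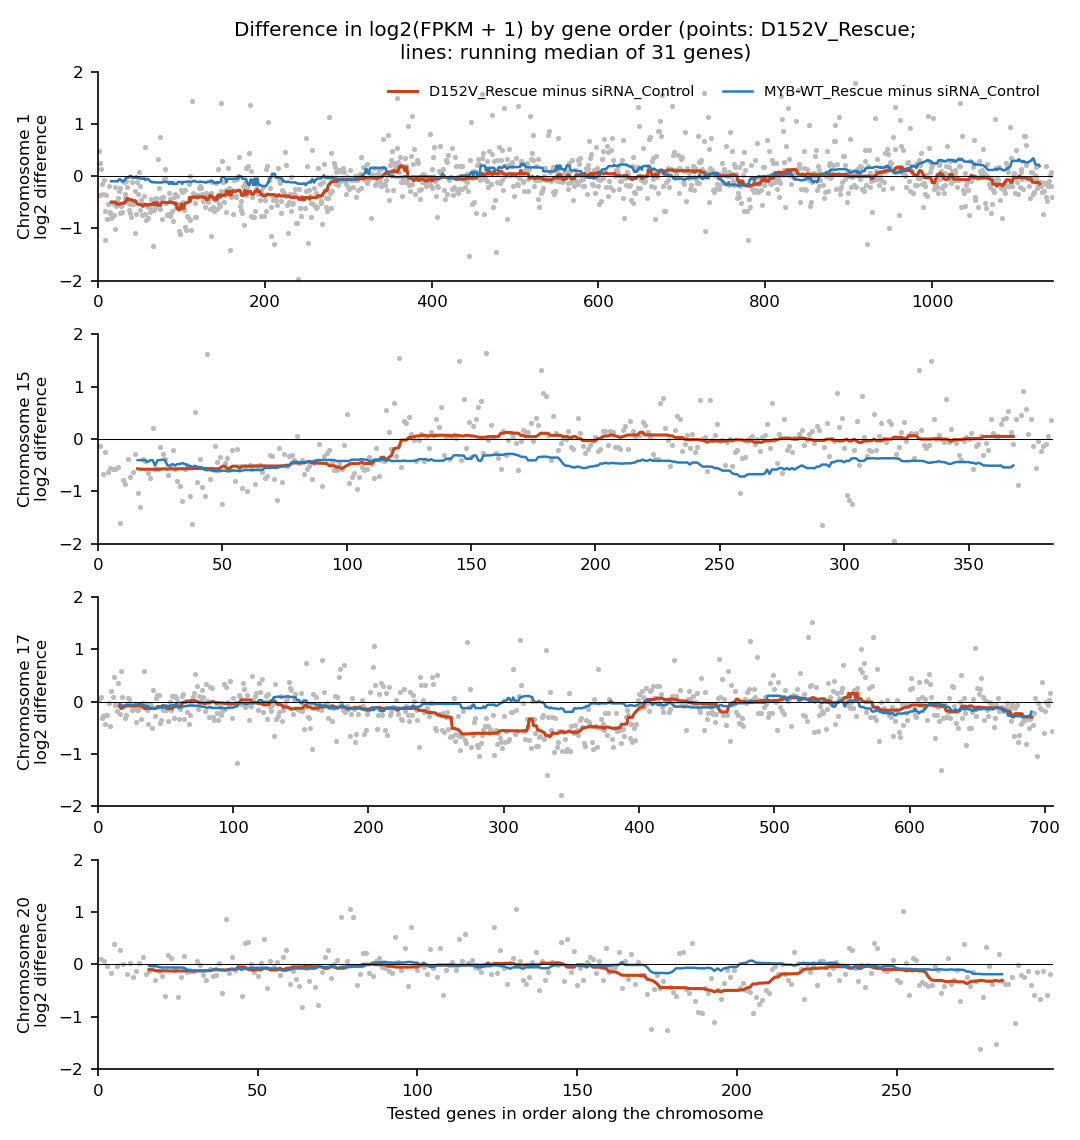
Log2 difference from siRNA_Control (y axis) of tested genes in their order along chromosomes 1, 15, 17 and 20 (x axis), as points for D152V_Rescue and as running medians of 31 genes for D152V_Rescue and MYB-WT_Rescue; 6 points beyond 2 are off the axis. The D152V_Rescue median is low over the stretches described, with medians from -0.38 to -0.55 on these chromosomes, and the MYB-WT_Rescue median is low along chromosome 15.

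Outside the 13 windows, MYB targets were lower for 5 of 12, MYC program genes for 14 of 32, ribosomal proteins for 18 of 41 and imprinted genes for 8 of 18. All tested globin, histone and cancer-testis genes lie outside them.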

How the data were processed

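The authors deposited 1 table of FPKM values for the 12 libraries, made with TopHat2 2.0.13 and Cufflinks 2.2.1 on GRCh38 after bcl2fastq 2.17.1.14 and Trimmomatic 0.33, per the submitters' processing notes, which give no order or role of the tools. Whole reads could not be recovered from the FPKM values (5.35% of ratios of low values fell within 2% of a common step), so no count test was made. From the table, log2(FPKM + 1) of genes with at least 1 FPKM in at least 3 of the 6 libraries was fitted with limma 3.58.1 in R 4.3.3 (empirical Bayes, 4 residual degrees of freedom), with Benjamini-Hochberg adjustment over all 12695 genes. Comparison with MYB-WT_Rescue was fitted likewise on its own 6 libraries (12787 genes). In simulated data with independent noise between libraries, the fit against control called 94% of 100 genes changed by a log2 of 1. The changed genes lay above a mean level of 5 FPKM and were few, while 28.4% of genes were called in the data. The 94% therefore does not cover lower genes, smaller changes or linked replicates.

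The members and the gene lists were chosen with earlier results of these data known. Named genes are 26 picked by name, the 12 largest called increases and decreases with groups apart and a mean of at least 5 FPKM, and up to 4 called members per list with the largest change. ADD1, BPGM, CISH, EPB41, EPOR, GAB1, IFIH1, IFITM1, IKZF1, JAK2, KLF3, LDHA, LIN28B, MAX, MYBL2, NAP1L5, NOLC1, ODC1, PEAR1, PPOX, SLC25A38, SRM and UBE3A were named after their values were seen. A few genes of the rule and lists are not reported here. Deviations of same-numbered libraries from their group means correlated across genes at r of 0.143, 0.115 and 0.327 for replicates 1, 2 and 3. For libraries of different numbers r ran from -0.259 to 0.151. The 0.151, of siRNA_Control replicate 2 with D152V_Rescue replicate 1, exceeds the values of replicates 1 and 2. Between D152V_Rescue and MYB-WT_Rescue r was 0.320, 0.114 and 0.357 for replicates 1, 2 and 3. For different numbers it ran there from -0.305 to 0.0405, below each same-numbered value. A pairing by replicate number is thus not settled against control, though same-numbered libraries of the rescue lines were more alike. The main fits leave the number out, and it was tried as a block. Alternatives were pseudocount 0.1, no filter, a mean of at least 5 FPKM, quantile normalization, median-ratio scaling, all 12 libraries, the block, each library left out and an adjusted p under 0.01; a fit on 11 libraries was chosen after seeing the data. Replicates are individual experiments, and the labels do not say more, so p-values measure the spread between these libraries.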

Additional observations from a re-analysis of the deposited data

How the results depend on the processing

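Against control, the 1477 higher and 2133 lower genes became 618 and 661 with all 12 libraries in the fit, and 763 and 1069 at an adjusted p under 0.01. Leaving out 1 library gave 920 to 1248 higher and 1291 to 1943 lower, and the fit with the replicate block 1988 and 2901. Against MYB-WT_Rescue, the 1454 higher and 1864 lower genes became 798 and 829 with all 12 libraries, 723 and 858 at an adjusted p under 0.01, 750 to 1483 and 1077 to 1573 without 1 library, and 1938 and 2530 with the block. Of 108 named genes called against control, 75 kept their direction and call under all alternatives in which they were tested, and 31 lost the call with all 12 libraries. Some of the 75 failed the filter in several alternatives and were not tested there. For example, ABCG2, CD3G and FAS were tested in 10 alternatives and H19 and SSX3 in 11, beside 14 for MYC. The block changed no call of a named gene beyond those given with its value. Changes of uncalled genes turned direction for BAD (0.025) and EP300 (0.0051) under median-ratio scaling. Without 1 library in turn, changes ran from -0.070 to 0.077 for BAD, -0.085 to 0.011 for EP300, -0.19 to 0.32 for HBG1, -0.15 to 0.11 for HEMGN, -0.17 to 0.22 for HBA2, -0.11 to 0.18 for VIM and -0.060 to 0.15 for GATA2. The cause was not tested. Depth is unknown, and 3 libraries a group limit the precision.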
